A study of Mus musculus with 30 samples.

Results

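H3K27me3 is the histone mark that Polycomb repressive complex 2 (PRC2) deposits, and its peaks in embryonic stem cells are usually found where PRC2 subunits are found. The peaks described here are the exceptions. They are H3K27me3 peaks on chromosomes 1 to 19 of E14Tg2A mouse embryonic stem cells without knock-down, chosen by the measured absence of any peak, overlapping by at least 1 bp, in 4 lists: Suz12 replicates 1 and 2 and EPOP (also C17orf96) replicates 1 and 2, all without knock-down. Of the 8811 H3K27me3 peaks of the list, 90 lay on chromosome X and 1 on the mitochondrial sequence, and of the 8720 autosomal ones 1501 met this rule (17.2%, Wilson 95% interval 16.4 to 18.0). They are called Suz12/EPOP-free peaks below, and the other 7219 autosomal peaks Suz12/EPOP-bound peaks. Bound means here that a called peak of at least 1 of the 4 lists overlapped. Among these 4, Suz12 replicate 1 carries the name si_ct, and Suz12 replicate 2 and EPOP replicate 2 the name sh_ct. These names read as control small interfering RNA and control short hairpin RNA, so the 2 Suz12 lists may differ in control treatment. The absence of Suz12 and EPOP peaks is the rule that chose the members, and it says nothing about signal below the peak caller's threshold.

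PRC2 is built around the methyltransferases Ezh1 and Ezh2 with Eed and Suz12, and Suz12 is needed for its assembly and activity. In embryonic stem cells it gathers at CpG islands of silent developmental genes, many of which also carry H3K4me3, the mark of promoters, and are then called bivalent. The mark can also spread outward from such sites, where Eed binds H3K27me3 already in place. Jarid2 and EPOP are accessory subunits of PRC2, and EPOP can also bind EloB (Elongin B), which belongs to the elongin complex.

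The cells were grown without feeders in serum and LIF. EPOP was depleted with a lentiviral short hairpin RNA in stably selected lines, and EloB with transfected small interfering RNA. The groups used were ChIP-seq of H3K27me3 upon EPOP knock-down (1 list) and without knock-down (1 list), of H3K4me3 with EPOP depleted (1), with EloB depleted (1) and without knock-down (2), and of Suz12 in the same 3 settings (1, 1 and 2). Jarid2 upon EPOP knock-down (1) and without (1), EPOP upon EPOP knock-down (2) and without (2), and EloB upon EPOP knock-down (2) and without (2) made up the 20 lists. The header of the H3K27me3 list upon knock-down reads SH3, while those of Suz12, H3K4me3 and Jarid2 upon EPOP knock-down read sh_4, and whether these are different hairpins is not stated. No list comes with its read depth. The 9 RNA libraries and the IgG library were not analysed here, peaks were not assigned to genes, and the labels do not say whether replicates came from separate cultures. H3K27me3 had 1 list in each condition, so its differences have no replicate check and no test over samples was possible. The intervals below cover counting of regions only.

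Suz12/EPOP-free peaks were weak and narrow H3K27me3 peaks. Their deposited score had a median of 65.03 (quartiles 55.7 and 82.9, highest 381), against 149 (83.9 and 290) for Suz12/EPOP-bound peaks. Their median width was 777 bp (quartiles 599 and 1008), against 1680 bp (1087 and 2642) for bound peaks. Together they covered 1298 kb, 7.76% of the 16739 kb under autosomal H3K27me3 peaks. At equal score they were still narrower, with a mean width of 865 bp against 1070 bp. Equal score means here that bound peaks were weighted so that each whole-number score had the same share among them as among Suz12/EPOP-free peaks, for which 4094 bound peaks were available.

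The share of H3K27me3 peaks that were Suz12/EPOP-free differed with score. With scores of 50 to 60, 585 of 1227 peaks were free of both (47.7%, 44.9 to 50.5). In the class of 100 to 150 the count was 161 of 1394 (11.5%, 9.98 to 13.3). At 300 to 500 it was 7 of 1055 (0.664%, 0.322 to 1.36), and at 500 and over 0 of 691. The strongest H3K27me3 peaks in these cells thus all overlapped a called Suz12 or EPOP peak, whereas at the weakest scores about as many peaks lacked both as had either.

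**Figure D1:**
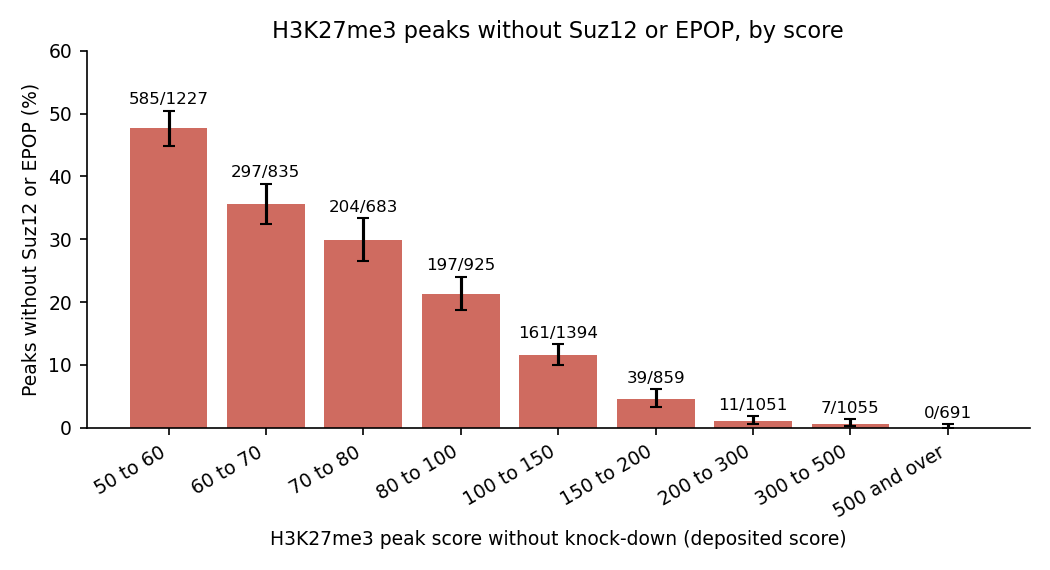
Share of autosomal H3K27me3 peaks without Suz12 or EPOP (y axis, percent) in 9 classes of the deposited H3K27me3 score without knock-down (x axis); bars are shares, error bars Wilson 95% intervals, and the numbers above are counts of such peaks over all peaks. The share is 47.7% in the class of 50 to 60 and 0 of 691 in the class of 500 and over.

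The 4 lists took part in the rule unequally. Suz12 replicate 1 alone accounted for 420 bound peaks, EPOP replicate 1 alone for 299, Suz12 replicate 2 alone for 42 and EPOP replicate 2 alone for 33, while 5144 peaks overlapped all 4. At the edge of the rule, 102 Suz12/EPOP-free peaks lay under 100 bp from a Suz12 or EPOP peak (median score 70.5, median width 772.5 bp, 26 with H3K4me3). On the other side, 89 bound peaks overlapped such a peak by under 100 bp (median score 64.9, median width 764 bp, 34 with H3K4me3). Among the closest free peaks, chromosome 13, 47289811 to 47290628 (mm9, as for all coordinates here), touched a Suz12 or EPOP peak without sharing a base and scored 61.06. Chromosome 5, 126016134 to 126017451, with a score of 148, overlapped a Suz12 replicate 1 peak by 1 bp and so was counted as bound. Upon EPOP knock-down, 58 of the 102 free peaks (56.9%) and 52 of the 89 bound peaks (58.4%) overlapped an H3K27me3 peak. Score, width and this share lay close together on both sides of the edge, while the share with H3K4me3 was 25.5% of the free and 38.2% of the bound peaks.

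H3K27me3 was next compared upon EPOP knock-down, to see whether the mark was found again at these sites. A peak was called kept if it overlapped, by at least 1 bp, an H3K27me3 peak of the knock-down list. Of Suz12/EPOP-free peaks 532 of 1501 were kept (35.4%, 33.1 to 37.9), against 6179 of 7219 Suz12/EPOP-bound peaks (85.6%, 84.8 to 86.4). Over all 8720 autosomal H3K27me3 peaks, 77.0% were kept. At equal score the kept share was 35.4% for free peaks and 67.0% for bound peaks, a difference of −31.5 percentage points. When width was matched as well, the bound share was 70.9% and the difference −35.5 percentage points. In bulk chromatin, fewer cells with the mark and less mark per cell cannot be told apart, and a peak that was not called may still have had signal below the threshold.

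Free peaks had the lower kept share in each score class up to 300. In the class of 50 to 60, 25.8% (22.4 to 29.5) of free peaks were kept, against 57.8% (53.9 to 61.6) of bound peaks. In the class of 100 to 150 these shares were 55.9% (48.2 to 63.3) and 84.8% (82.6 to 86.7). With scores of 150 to 200 the shares were 84.6% (70.3 to 92.8) of 39 free peaks and 95.1% (93.4 to 96.4) of bound peaks. All 7 free peaks with scores of 300 to 500 were kept, as were 1041 of 1048 bound peaks. The kept share of free peaks thus stood higher in the stronger classes, and the classes above 150, which held few free peaks, had wide intervals.

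**Figure D2:**
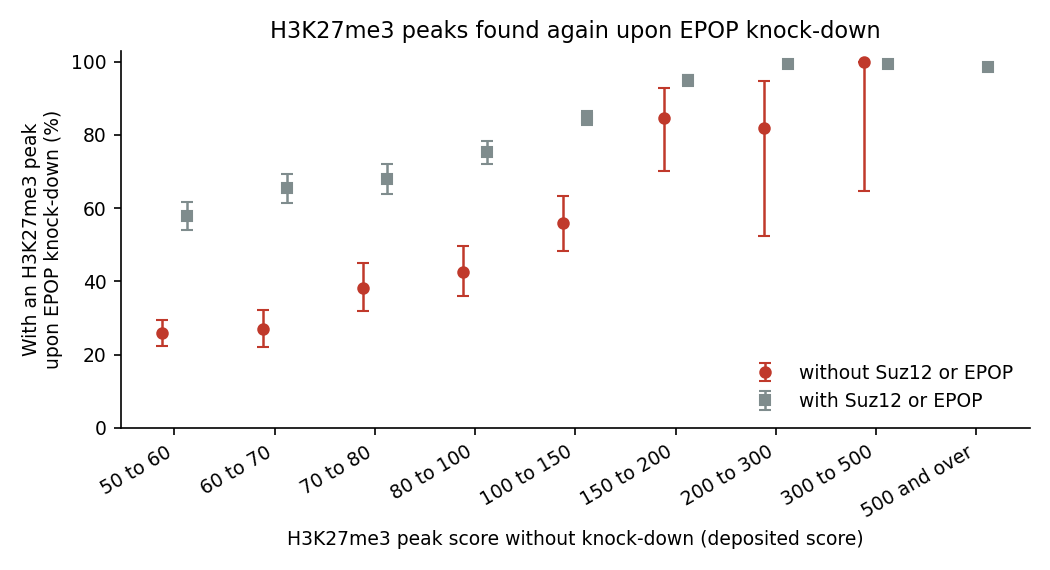
Share of H3K27me3 peaks with an H3K27me3 peak upon EPOP knock-down (y axis, percent) by score without knock-down (x axis), for peaks without Suz12 or EPOP (red circles) and peaks with either (grey squares), with Wilson 95% intervals. In the class of 50 to 60 the shares are 25.8% and 57.8%, and the classes above 200 hold 11 and 7 peaks without Suz12 or EPOP.

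The kept Suz12/EPOP-free peaks had a median score of 73.9 and a median width of 836.5 bp, and the 969 missing ones 61.7 and 732 bp. Over all autosomal H3K27me3 peaks 23.0% were missing. Of the kept ones, 398 (74.8%) had a larger summed peak width upon knock-down than without it, with a median log2 ratio of 0.42 (exact binomial 95% interval of the median 0.33 to 0.57). Of kept bound peaks 4793 (77.6%) had a larger summed width, and their median log2 ratio was 0.41. At equal score the mean log2 ratio was 0.78 for free and 1.11 for bound peaks. Where 1 knock-down peak spanned several peaks, each of them was given its whole width. The knock-down list itself had a median width of 1634.5 bp, against 1438 bp in the list without knock-down, so wider peaks were not particular to these sites. The median kept free peak was covered by knock-down peaks over 80.1% of its bases, and the median kept bound peak over 99.2%.

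Of the 532 kept Suz12/EPOP-free peaks, 372 were overlapped only by knock-down peaks that themselves lay off Suz12 and EPOP, and 160 by a knock-down peak that reached onto a Suz12 or EPOP peak. The 160 were all within 5000 bp of such a peak. The same rule was then applied to the knock-down list, with the same 4 Suz12 and EPOP lists. It found 1542 of 7752 autosomal peaks (19.9%), with a median score of 68.2 and a median width of 750 bp. Of these 1542, 464 (30.1%, 27.9 to 32.4) overlapped an H3K27me3 peak of the list without knock-down, against 85.4% of the other 6210 knock-down peaks and 74.4% of all. At equal score the share was 61.2% for the others. In both directions, peaks off Suz12 and EPOP thus overlapped the other H3K27me3 list less often than the remaining peaks did. Of the 1542, 380 (24.6%) overlapped a Suz12/EPOP-free peak. Suz12 upon EPOP knock-down was found at 31 (2.01%, 1.42 to 2.84) of the 1542, where 70.2% of all knock-down peaks and 68.2% of the others at equal score had it. H3K4me3 upon EPOP knock-down was found at 200 (13.0%, 11.4 to 14.7), where these shares were 75.2% and 80.7%.

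The highest-scoring kept member was chromosome 10, 59427726 to 59431739, with a score of 381 and 475 bp from a Suz12 or EPOP peak. The peak called there was 1160 bp wide upon knock-down and 4014 bp without. Chromosome 15, 38083996 to 38086576, with a score of 379, was 106 bp from such a peak and 314041 bp from the next H3K27me3 peak, and was 2735 bp wide upon knock-down and 2581 bp without. Chromosome 4, 45665049 to 45667379, with a score of 340, lay 108775 bp from any Suz12 or EPOP peak. It was found in no list but those of H3K27me3. Chromosome 8, 119657334 to 119659247 (score 331), also carried a Suz12 peak upon EloB knock-down. Chromosome 2, 178141248 to 178143387 (score 371), had H3K4me3 in all 4 H3K4me3 lists and Suz12 with EPOP depleted. These 5 peaks shared little beyond their H3K27me3 in both lists.

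Among the highest-scoring missing members were chromosome 9, 73021886 to 73023312 (score 219), which held a peak in no other of the 20 lists, and chromosome 18, 34699142 to 34700822 (score 206), which held only H3K4me3 upon EloB knock-down. The other 3 were chromosome 7, 53048797 to 53050563 (score 195), chromosome 13, 21334465 to 21336241 (score 179), and chromosome 2, 84573176 to 84574650 (score 167). Each of these 3 carried H3K4me3 in all 4 lists, and the one on chromosome 13 also carried Suz12 in both knock-down lists. The widest member was chromosome 18, 21283923 to 21288619, 4697 bp wide with a score of 74.4. It was kept, and lay 123579 bp from the nearest Suz12 or EPOP peak.

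Which of the rule's lists a bound peak overlapped was set beside its kept share, a split chosen after the values were seen. Suz12 replicate 1 divided the kept shares, which were not matched for score. Among the 8 combinations of lists without Suz12 replicate 1, the kept share ranged from 20.8% to 54.5%, the 35.4% of Suz12/EPOP-free peaks included. Among the 8 combinations with it, the share ranged from 65% to 94.1%. The 54.5% came from 11 peaks (28.0 to 78.7), and its interval overlapped that of the 65% (58.5 to 71.0). The 94.1% was that of the 5144 peaks with all 4 lists, whose median score was 207. The 420 peaks that overlapped Suz12 replicate 1 and no other of the 4 lists had a median score of 81.2, and 363 of them were kept (86.4%, 82.8 to 89.4). The 299 peaks with EPOP replicate 1 alone had a median score of 73.4, and 83 were kept (27.8%, 23.0 to 33.1).

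**Figure D3:**
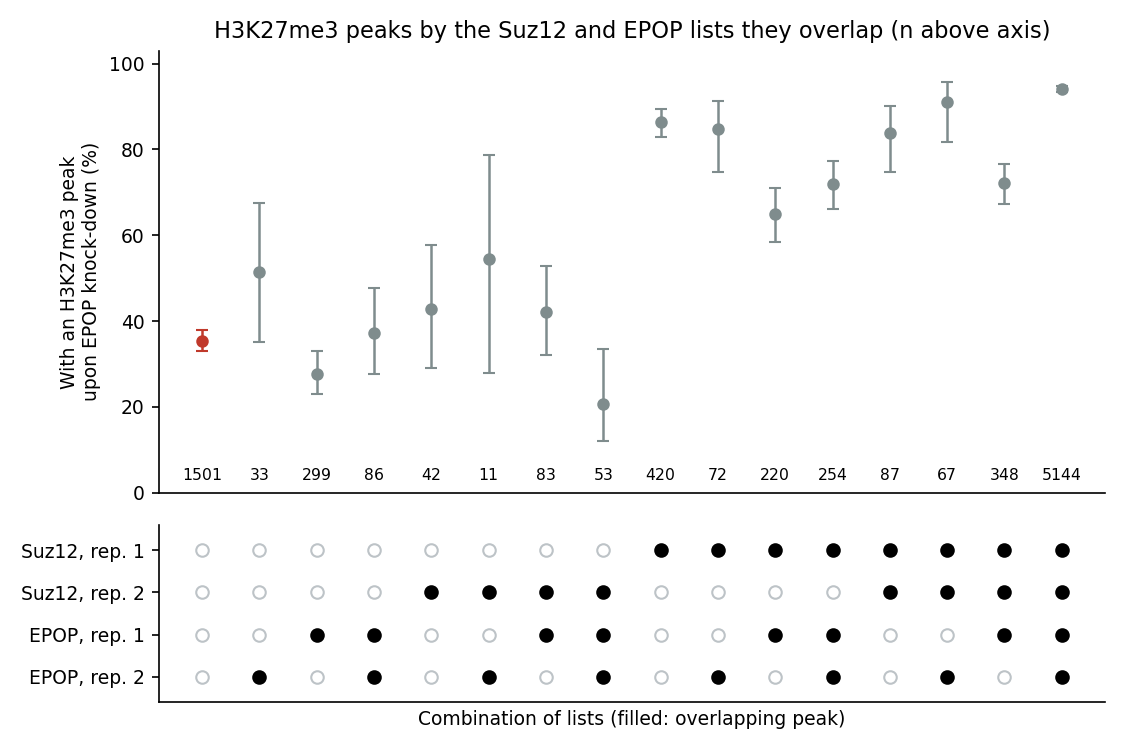
Share of H3K27me3 peaks with an H3K27me3 peak upon EPOP knock-down (y axis of the upper panel, percent, with Wilson 95% intervals and the number of peaks above the axis) for each of the 16 combinations of the 2 Suz12 and 2 EPOP lists without knock-down (lower panel, filled circles mark an overlapping peak). The 8 combinations with Suz12 replicate 1 stand at 65% to 94.1% and the 8 without it, led by the 1501 peaks with none of the lists (red), at 20.8% to 54.5%.

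Suz12/EPOP-free peaks were not the class with the lowest kept share. The 418 peaks with EPOP but no Suz12 were kept in 31.6% (27.3 to 36.2). In the scores that these 418 and the free peaks shared, 33.7% of free peaks and 26.3% of the peaks with EPOP alone were kept. The 549 peaks with Suz12 but no EPOP were kept in 82.7% (79.3 to 85.6), and in shared scores 34.3% of free peaks and 77.6% of these were kept. The 607 bound peaks without Suz12 replicate 1 were kept in 33.3% (29.6 to 37.1). In the scores they shared with free peaks, 34.2% of free peaks and 27.9% of these were kept, a difference of 6.26 percentage points in the opposite direction to that from all bound peaks. When Suz12 replicate 1 was left out of the rule, 1921 peaks met it, 46.6% of them were kept, the difference at equal score was −19.6 percentage points and the median log2 width ratio was 0.89. The difference was thus smaller with that 1 list left out of the rule, in the same direction. The 420 peaks with Suz12 replicate 1 alone then counted as free. Its peaks with another of the 4 lists still counted as bound, so that list was not removed from the comparison. Regions near each other are not independent and no test was made of these classes.

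The next question was where Suz12/EPOP-free peaks lay relative to called Suz12 or EPOP peaks. The nearest Suz12 peak lay at a median distance of 12806 bp and the nearest EPOP peak at 11191 bp. For the nearest Suz12/EPOP-bound H3K27me3 peak the median was 25793 bp. The distance to the nearest peak of either Suz12 or EPOP, used below, had a median of 6332 bp, with quartiles of 623 and 45876 bp. Under 1000 bp lay 461 peaks (30.7%), at 1000 to 5000 bp 246, and at 10000 bp and over 665 (44.3%), of which 176 were at least 100000 bp away. Suz12/EPOP-free peaks thus included both peaks at the flanks of a Suz12 or EPOP peak and peaks remote from any. Scores hardly differed between them, with medians of 65 under 1000 bp and 64.1 at 10000 bp and over.

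Peaks at the flanks were kept more often than remote ones when any overlapping knock-down peak was counted. Under 1000 bp from a Suz12 or EPOP peak, 240 of 461 were kept (52.1%, 47.5 to 56.6). Of these, 151 (32.8% of the 461) touched a knock-down peak that reached onto such a site. At 1000 to 5000 bp the kept share was 35.0% (29.3 to 41.1), and at 10000 bp and over 171 of 665 (25.7%, 22.5 to 29.2). None of the 665 touched a knock-down peak that reached onto a Suz12 or EPOP peak. The order was thus not shown for knock-down peaks off Suz12 and EPOP alone. The remote peaks differed from bound peaks of equal score by −41.2 percentage points, and those under 1000 bp by −14.2. Beyond 5000 bp the kept share lay between 24.2% and 28.4% in all 4 distance classes, with overlapping intervals.

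**Figure D4:**
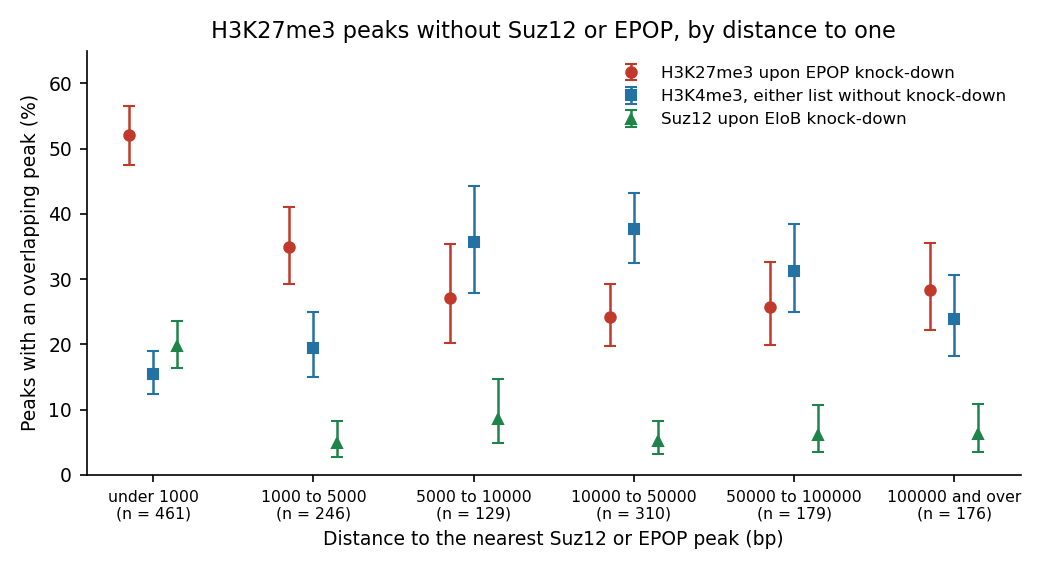
Share of H3K27me3 peaks without Suz12 or EPOP that overlap an H3K27me3 peak upon EPOP knock-down (red circles), an H3K4me3 peak of either list without knock-down (blue squares) or a Suz12 peak upon EloB knock-down (green triangles), in percent (y axis) by distance to the nearest Suz12 or EPOP peak in bp (x axis), with Wilson 95% intervals. Under 1000 bp the shares are 52.1%, 15.4% and 19.7%, and at 10000 to 50000 bp 24.2%, 37.7% and 5.16%.

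Suz12/EPOP-free peaks neighboured other H3K27me3 peaks less often than bound ones. The next H3K27me3 peak was under 1000 bp away for 29.2% of them, against 44.2% of bound peaks and 46.0% of bound peaks of equal score. Chained at gaps of up to 5000 bp, 1209 of the 1501 stood alone, 190 formed pairs and 102 formed 28 clusters of 3 or more. Members of clusters of 3 or more were kept in 57.8% (48.1 to 67.0), pairs in 54.7% (47.6 to 61.7) and single peaks in 30.5% (28.0 to 33.2). Neighbours are not independent, and 1 knock-down peak can overlap several of them, so the intervals of clusters and pairs are too narrow. H3K4me3 lay on 0.980% of the members in clusters of 3 or more, on 14.7% of paired members and on 29.0% of single ones. Clustered members also scored higher, with a median of 77.4 against 64.0 for single peaks.

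The longest run of neighbouring members was on chromosome 2. It held 8 peaks from 158891053 to 158902786, a span of 11734 bp that lay 296339 bp from the nearest Suz12 or EPOP peak of the 4 lists, and a further member at 159246807 to 159247455. The 8 peaks scored from 53.3 to 130, and all 8 were kept. Upon knock-down the first 3 overlapped 1 peak of 2993 bp and the next 3 overlapped 1 peak of 3404 bp. No H3K4me3 peak overlapped any of the 8, while Suz12 upon EloB knock-down overlapped 5 of them. A cluster on chromosome 9, 94556928 to 94572358, also without H3K4me3, held 6 members, of which 1 was kept. Chromosome 1, 7305419 to 7314452, held 4 members, of which none was kept. Chromosome 4, 129425054 to 129431230, also held 4 members, and all 4 were kept. Clusters of 4 members thus differed in whether the mark was found again.

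Members were found on every autosome in similar proportion. They made up from 13.6% (10.1 to 17.9) of the H3K27me3 peaks of chromosome 19 to 21.0% (16.2 to 26.8) of those of chromosome 16. The share of members kept ranged from 27.3% (18.0 to 39.0) on chromosome 13 to 53.8% (41.9 to 65.4) on chromosome 17, where 35 of 65 were kept.

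H3K4me3 was then compared, since it marks promoters and lies on most polycomb sites of embryonic stem cells. A peak of either H3K4me3 list without knock-down overlapped 380 of 1501 Suz12/EPOP-free peaks (25.3%, 23.2 to 27.6), against 6481 of 7219 bound peaks (89.8%, 89.1 to 90.5). Over all autosomal H3K27me3 peaks the share was 78.7%. Bound peaks of equal score had 80.9%, a difference of −55.6 percentage points. Of free peaks 245 (16.3%) overlapped a peak of all 4 H3K4me3 lists and 1045 (69.6%) of none, against 84.8% and 8.78% of bound peaks. Unlike the kept share, the share of free peaks with H3K4me3 had no steady order by score. It was 22.7% (19.5 to 26.3) at 50 to 60, 30.3% (25.4 to 35.8) at 60 to 70, 27.9% (22.2 to 34.5) at 70 to 80 and 24.9% (19.4 to 31.4) at 80 to 100. It was 22.4% (16.6 to 29.4) at 100 to 150, 30.8% (18.6 to 46.4) at 150 to 200, and 1 of 11 peaks at 200 to 300 and 2 of 7 at 300 to 500 had it. Most Suz12/EPOP-free peaks were thus not bivalent by these lists. The share was 40.6% when a gap of up to 1000 bp counted as overlap, also in the rule, and 38.3% of the 381 peaks that met the rule when each list was limited to scores of at least 100.

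The share with H3K4me3 lay between 17.7% and 27.6% in the 4 lists. Upon EPOP knock-down 21.9% (19.8 to 24.0) of free peaks overlapped H3K4me3, and upon EloB knock-down 27.6% (25.4 to 29.9), against 17.7% in replicate 1 and 24.7% in replicate 2 without knock-down. Over all autosomal H3K27me3 peaks these shares were 76.3%, 79.4%, 73.9% and 78.3%. The 4 lists held 39967, 47296, 35027 and 42857 peaks in the same order, and the shares followed the length of the lists. With each list cut by score to 35027 peaks, a setting chosen after the data were seen, the shares were 19.6%, 21.9%, 17.7% and 21.0% of free peaks, and 86.4%, 88.2%, 85.6% and 88.1% of bound peaks. The share upon EPOP knock-down then lay between those of replicates 1 and 2, and the share upon EloB knock-down above both. The order of the 4 lists was the same for bound peaks.

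The H3K4me3 peaks on Suz12/EPOP-free sites were not strong ones. In replicate 1 their median score of 220 was at percentile 40.2 of the autosomal H3K4me3 peaks, against 63.7 for H3K4me3 peaks on bound sites and 44.6 for those on no H3K27me3 peak. Their median width was 1092 bp, against 1669 bp on bound sites. Replicate 2 gave percentiles of 46.1, 70.2 and 44.5. Members with H3K4me3 were farther from Suz12 or EPOP peaks, with a median distance of 15928 bp against 4111 bp for members without it. They were also kept less often, in 21.6% (17.7 to 26.0) against 40.1% (37.3 to 43.0) of the 1121 without H3K4me3. Among members of equal score the shares were 20.2% and 38.3%. At 10000 bp and over from a Suz12 or EPOP peak they were 16.7% (12.3 to 22.3) of 215 and 30.0% (25.9 to 34.4) of 450.

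The bound classes stood apart here too. Peaks with EPOP but no Suz12 carried H3K4me3 in 81.3% (77.3 to 84.8), and peaks with Suz12 but no EPOP in 33.7% (29.9 to 37.8). In the scores that free peaks shared with the peaks with Suz12 alone, 25.3% of free peaks and 33.8% of the others carried H3K4me3. The 420 peaks with Suz12 replicate 1 and no other of the 4 lists carried H3K4me3 in 21.2% (89 peaks), not matched for score. A low share with H3K4me3 was thus not particular to Suz12/EPOP-free peaks. By H3K4me3, Suz12/EPOP-free peaks were closer to peaks with Suz12 alone, and by the kept share to peaks with EPOP alone.

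The remaining lists had no part in the rule, although they share the cell line and targets with lists that did. Suz12 upon EPOP knock-down overlapped 42 Suz12/EPOP-free peaks (2.80%, 2.08 to 3.76), where 69.8% of all autosomal H3K27me3 peaks and 66.6% of bound peaks of equal score had such a peak. Suz12 upon EloB knock-down overlapped 152 (10.1%, 8.70 to 11.8), where the shares were 76.9% and 79.9%. The second Suz12 list overlapped more members although it was shorter, with 7168 peaks against 8491. With both cut to 7168 peaks 1.33% of members overlapped Suz12 where EPOP was depleted and 10.1% where EloB was. For bound peaks these shares were 80.6% and 90.8%, so the shorter list had the higher share there too. Both lists together overlapped 180 members and 14 members had both. Per the file headers, Suz12 upon EloB knock-down and Suz12 replicate 1 carry the name si, and Suz12 upon EPOP knock-down and replicate 2 the name sh. The knocked-down gene, the method and the library cannot be told apart here.

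**Figure D5:**
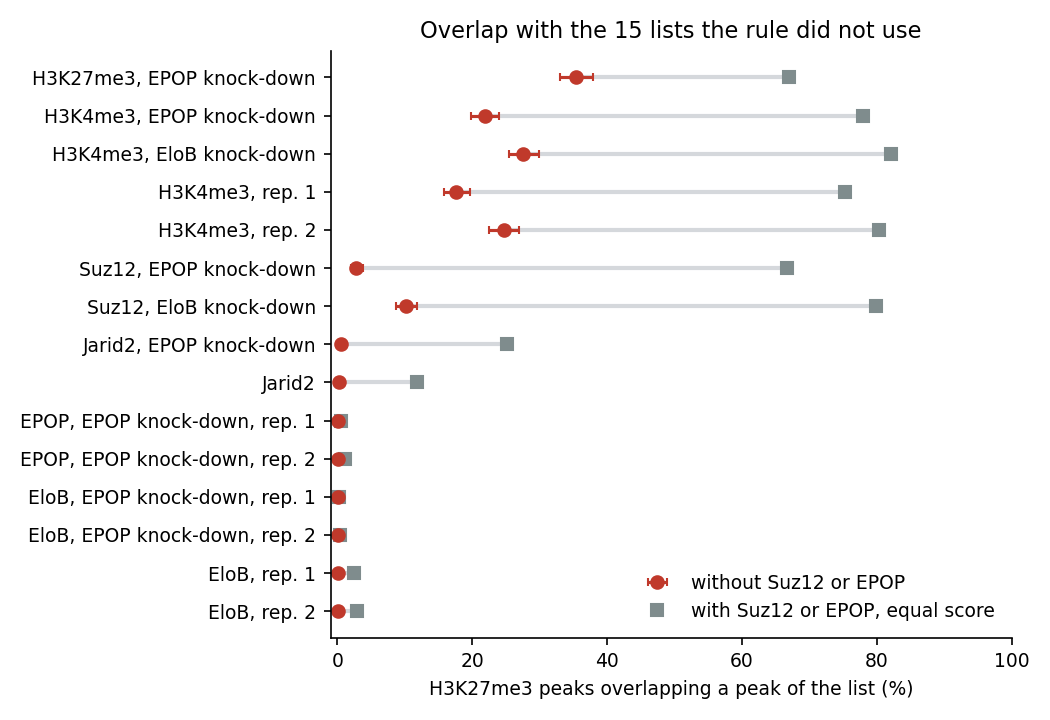
Share of H3K27me3 peaks that overlap a peak of each of the 15 lists that the rule did not use (x axis, percent; lists on the y axis), for peaks without Suz12 or EPOP (red circles, Wilson 95% intervals) and for peaks with either, weighted to the same scores (grey squares). For Suz12 upon EPOP knock-down the shares are 2.80% and 66.6%, and for H3K27me3 upon EPOP knock-down 35.4% and 67.0%.

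The 152 members with Suz12 upon EloB knock-down lay mostly at the flanks of Suz12 or EPOP peaks, with 91 (59.9%) under 1000 bp from one. The Suz12 peaks on them had a median score of 151, against 694 for their whole list. Of the 152, 99 were kept upon EPOP knock-down (65.1%, 57.3 to 72.2). Under 1000 bp from a Suz12 or EPOP peak 19.7% of members had Suz12 upon EloB knock-down, and at 10000 bp and over 5.71%. Of the 42 with Suz12 upon EPOP knock-down, 28 carried H3K4me3 and 19 were kept (45.2%, 31.2 to 60.1). The Suz12 peaks on these 42 had a median score of 71.3, against 271 for their whole list. Over all 1501 members, 25.3% carried H3K4me3 and 35.4% were kept.

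Jarid2, which aids PRC2 recruitment, was almost absent. It overlapped 7 members upon EPOP knock-down (0.466%, 0.226 to 0.960) and 3 without knock-down (0.200%, 0.0680 to 0.586). Over all autosomal H3K27me3 peaks the shares were 44.0% and 30.3%, and over bound peaks of equal score 25.2% and 11.9%. Of the 7 members, 6 were kept. EloB upon EPOP knock-down overlapped 1 member in each replicate, where 0.149% and 0.241% of all peaks had it. EloB without knock-down likewise overlapped 1 member in each replicate, where 12.4% and 15.1% of all and 2.53% and 2.95% of bound peaks of equal score did. EPOP upon EPOP knock-down overlapped 1 member in replicate 1 and 2 in replicate 2, where 0.745% and 6.40% of all peaks had it. The libraries titled EPOP knock-down replicate 1 and IgG name each other's target in their descriptions, and the title was followed here.

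Over the 15 lists that the rule did not use, 595 members (39.6%) overlapped a peak of none, with a median score of 60.01 and a median width of 654 bp. A further 342 (22.8%) overlapped H3K27me3 upon EPOP knock-down and no other list, with a median score of 72.5 and a median width of 812.5 bp. Only 49 bound peaks (0.679%) overlapped none of the 15. Exactly 1 of the 15 lists, of any target, overlapped 102 bound peaks (1.41%) and 422 members (28.1%). These shares were not matched for score. H3K27me3 called in both conditions, with no peak of any other target, was therefore found at 342 of the 1501 sites. Bound peaks cannot be of this kind, because by the rule each overlaps a Suz12 or EPOP peak.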

How the data were processed

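Each of the 20 deposited peak lists of ChIP-seq samples gives a chromosome, start, end and score per peak. The lowest score deposited by the authors was at least 50 in each list. How they computed this score is not stated, so scores rank and match peaks within a list only. The submitters' processing notes name Bowtie and mm9, and peak names carry MACS per the file headers. The H3K27me3 headers also read IgG. Lists belong to 1 sample each. Groups were taken from the sample titles.

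From these files, overlaps of at least 1 bp, distances, shares with Wilson 95% intervals and score-matched shares were computed. Bound peaks were weighted to the members' whole-number scores. The overlap code matched bedtools 2.31.1, and the matching was tested on simulated data. Regions were named by rank: the 5 highest-scoring kept and missing members, the 5 widest, the closest and least overlapping peaks, and the longest run. Other named regions, the clusters, the combinations of lists and the distance classes were chosen after their values were seen. The members and comparisons were chosen with earlier results of these data known. Alternatives were other overlaps, scores, lists, score classes, width matching and chromosome X. No annotation or genome of mm9 was used here. Analyses used Python 3.11.15, pandas 2.3.3, statsmodels 0.14.6 and Matplotlib 3.10.9.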

Additional observations from a re-analysis of the deposited data

How the results depend on the processing

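Of 73 alternative values of 6 results, 46 stayed within the counting interval of the reported value (or within 1.5 times for the number of members) and 27 did not. For differences at equal score, the interval was that of the members' share, which leaves out the counting of bound peaks. No difference or log2 width ratio changed sign, while the number of members and the shares cannot be negative. Differences from single classes of bound peaks were not among the 73. There the kept difference ranged from −43.3 percentage points (Suz12 but no EPOP) to 7.42 (EPOP but no Suz12). The cause of a change was not tested where no value shows it. With scores of at least 100 in every list, 381 peaks met the rule, 45.1% were kept, 38.3% had H3K4me3 and the H3K4me3 difference at equal score was −49.7 percentage points; fewer peaks of every list enter there. With a gap of up to 1000 bp counted as overlap, the kept difference was −39.7, the H3K4me3 share 40.6% and its difference −49.5. When an overlap had to span 0.5 of the shorter peak or more, the H3K4me3 share was 17.9% and its difference −58.2. With Suz12 upon knock-down, Jarid2 and EloB also excluding peaks, 31.5% were kept and the difference was −35.0. With score and width matched, the differences were −35.5 (kept) and −48.7 (H3K4me3). With H3K27me3 lists of the same length 39.2% were kept. H3K4me3 was found at 16.99% in both lists and at 17.7% in replicate 1 alone. For members at least 10000 bp from a Suz12 or EPOP peak, added after the data were seen, the shares were 25.7% (kept) and 32.3% (H3K4me3) and the differences −41.2 and −48.1. Leaving out each Suz12 and EPOP replicate from the rule gave 1534 to 1921 members, kept shares of 34.2% to 46.6%, kept differences of −37.8 to −19.6, H3K4me3 shares of 24.4% to 34.3%, H3K4me3 differences of −64.7 to −47.2 and log2 width ratios of 0.36 to 0.89; the widest ratio, the highest kept share and the smallest kept difference came without Suz12 replicate 1. No paired analysis was possible because the results come from no test and the H3K27me3 sample has 1 list in each condition. Depth is unknown, which limits what a missing peak can show.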

Other observations

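The member with a peak in the most lists was chromosome 15, 74915855 to 74917600, 1746 bp wide with a score of 157, 128913 bp from the nearest Suz12 or EPOP peak. It held a peak in 14 of the 20 lists, and was chosen after its values were seen. EPOP upon EPOP knock-down had peaks there with scores of 531 in replicate 1 and 219 in replicate 2, while EPOP and Suz12 without knock-down had none. All 4 EloB lists, both Jarid2 lists, both H3K27me3 lists and all 4 H3K4me3 lists also held a peak, and Suz12 upon knock-down had none. No other member held a peak in more than 7 of the 15 lists outside the rule.

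Chromosome X was outside the rule. Of its 202 H3K27me3 peaks upon EPOP knock-down, 25 overlapped no Suz12 or EPOP peak of the 4 lists (12.4%, 8.53 to 17.6). Of its 90 peaks without knock-down, 10 did not (11.1%, 6.15 to 19.3).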
